A study of Mus musculus with 13 samples.

Results

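The 9 genetically induced tumors of the study, called GEM-BCC tumors, were described alone, out of 13 tumors in all, and were chosen by their condition in the sample labels. A GEM-BCC tumor is a basal cell carcinoma that arose in the dorsal skin of a Ptch1+/- K14-CreER2 p53fl/fl mouse, a strain in which 1 copy of the Hedgehog receptor gene Ptch1 is lost and the tumor suppressor gene p53 (Trp53) is deleted by a Cre recombinase that the keratin 14 promoter drives in basal keratinocytes. All 9 tumors were intradermal, came from female mice and carried the same engineered alleles, on a background that the paper describes as mixed. They were induced the same way, with 3 intraperitoneal injections of 300 µg tamoxifen and 1 X-ray dose of 4 Gy. They came from 7 mice. GEM2 and GEM3 grew in 1 mouse, GEM7 and GEM8 in another, and GEM1, GEM4, GEM5, GEM6 and GEM9 each in a mouse of its own. The comparison asked how far tumors of 1 engineered genotype and 1 treatment differed from each other. It also asked whether tumors of the same mouse were closer than tumors of different mice. The labels put all 9 libraries in batch 1 and give neither the ages of the mice nor the place of each tumor on the back.

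Basal cell carcinoma grows from keratinocytes of the epidermis and hair follicle in which the Hedgehog pathway is switched on. When the receptor Ptch1 no longer holds back Smo, the Gli transcription factors turn on target genes that include Gli1 and Ptch1 itself. Tumor cells keep a basal, follicle-like state marked by keratins 5, 14 and 17, while normal epidermis above them matures into suprabasal keratinocytes that build the cornified envelope. A piece of such a tumor holds tumor cells, stroma, vessels, immune cells and often skin at its edge, and in bulk RNA fewer cells of a type and less RNA per cell cannot be told apart.

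Each library was measured by poly(A) RNA sequencing, and the values are RSEM expected counts per gene. Total counts ranged from 28075317 to 32629102, with a median of 31341353, so that depth differed little. Levels are given as CPM, the count of a gene scaled to library size with factors from the trimmed mean of M-values (TMM), and spread is the SD over the 9 tumors of log2 CPM. Of 14260 genes tested, 10483 averaged 3 or more in log2 CPM, which at this depth is a median of about 266 counts for genes at that limit. Libraries stood apart in 2 technical measures. Over the tested genes, GEM1 deviated from the mean of all 9 in step with transcript GC content (Spearman's rho across genes 0.49, other tumors -0.22 to 0.06). The deviation of GEM3 fell with transcript length (rho -0.50), as did that of GEM6 (-0.33), whereas GEM9 was at 0.41 and GEM4 at 0.34. Their part in the differences between tumors was not tested. Many results that rest on GEM1 or GEM3 are also given without them, or after both trends were removed. GC content was fitted first and length second, and the removal was incomplete for GC content. It left GEM3 with a rho of -0.18 to GC content, from -0.02 before, and the other tumors with -0.09 to 0.10.

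The labelled tissue was checked against its markers. The 14 basal keratinocyte genes were all tested and summed to between 11060 CPM (GEM5) and 19280 CPM (GEM4), and Krt14 itself lay between 1304 CPM (GEM8) and 4340 CPM (GEM2) with a median of 2377 CPM. Gli1, the readout of Hedgehog activity, was between 388 CPM (GEM3) and 817 CPM (GEM5), with a median of 565 CPM and an SD of 0.35. Ptch1 lay between 162 CPM (GEM4) and 453 CPM (GEM8), with a median of 238 CPM and an SD of 0.50. Trp53 lay between 30.7 CPM (GEM4) and 63.9 CPM (GEM6), with a median of 42.0 CPM. The table counts whole genes, so reads of the deleted p53 exons or of the lost Ptch1 copy were not separated, and these values do not check the alleles. Markers of muscle, fat and T and NK cells were low. Skeletal muscle genes summed to 35.7 to 103 CPM and adipocyte genes to 40.7 to 67.9 CPM, and T and NK cell genes to 6.78 to 22.5 CPM. Lists named for skin structures summed higher, with cornified envelope genes at 373 to 2163 CPM and sebaceous gland genes at 668 to 2012 CPM. Hair shaft and inner root sheath genes summed to 208 to 382 CPM, and smooth muscle and pericyte genes to 1030 to 1951 CPM. Few genes carried some of these sums. Fads2 and Fads1 had medians of 611 and 273 CPM, against 1310 CPM for the whole sebaceous gland list. Cspg4 had a median of 666 CPM, against 1558 CPM for the smooth muscle and pericyte list. The sums alone therefore do not show that the structures were present. Whether these transcripts came from the tumor or from skin at its edge was not tested.

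The most abundant transcripts were those of protein synthesis, of basal keratinocytes and of matrix. Ranked by mean CPM per kilobase of the longest transcript, Eef1a1, the elongation factor that brings tRNA to the ribosome, came first with 5132 CPM per kb. Krt5, the partner keratin of Krt14, came next with 3455 CPM per kb. The genes that followed were Rpl13a, Rps18, Rpl23a, Rpl13, Tpt1, Rps27rt and Rps4x, of which all but Tpt1 encode ribosomal proteins, and Col1a2, a chain of type I collagen. In CPM, without the division by length, Col1a2 was the highest of all genes at 10924 ± 4525 (SD, n = 9), from 4485 in GEM4 to 20456 in GEM6. Krt5 was steadier, at 7590 ± 1746 (SD, n = 9), from 4961 in GEM5 to 10607 in GEM1. GEM3 was the highest tumor for all of Rpl13a, Rps18, Rpl23a, Rpl13, Tpt1, Rps27rt and Rps4x, and also for Eef1a1. Ribosomal protein transcripts are short, and GEM3 was the tumor with the strongest relation to transcript length. Rps27rt and other ribosomal protein genes have near-identical copies, so the division of reads between them is uncertain.

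For most genes the tumors were close. The median SD over the 10483 genes was 0.38 on the log2 scale, and the median ratio of the highest to the lowest tumor was 2.25. The steadiest genes were Chtop (an mRNA export factor, SD 0.07), Ndrg3 (0.07), Cnot8 (a subunit of the CCR4-NOT deadenylase, 0.07), Mark3 (a kinase, 0.08) and Fkbp4 (an Hsp90 co-chaperone, 0.08). Chtop lay between 238 and 273 CPM in all 9 tumors. An SD of at least 1 was reached by 333 genes, or 3.18% of the 10483, and 257 genes differed at least 10-fold between the highest and lowest tumor. After removal of the GC and length trends 288 genes reached it, and the median SD was 0.30. GEM3 was the tumor farthest from the median in 126 of the 333 genes, more than any other, followed by GEM2 with 49 and GEM8 with 38. These are 37.8%, 14.7% and 11.4% of the 333, and over all 10483 genes the shares of the same tumors were 31.9%, 6.12% and 8.28%. GEM1 was the farthest in 25.9% of all genes and in 8.11% of the 333.

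Many of these SDs depend on a single tumor. Of the 333 genes, 254 kept an SD of at least 1 without GEM3, 287 without GEM2 and 297 without GEM4, and 304 to 324 without each of the other tumors. Whichever tumor was left out, 151 genes kept it. In 38 of the 333 genes a single tumor was separated from the other 8 by a gap, as a share of the whole range, past Dixon's 95% critical value, on the low side in 28 and on the high side in 10.

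Many of the genes that varied most belong to the differentiating epidermis. Klk7, a serine protease that cuts the links between cornified cells, had the largest SD, 3.31. It had 2 counts in GEM3 (0.065 CPM), a median of 20.3 CPM and 5726 counts in GEM4 (194 CPM). GEM4, GEM5, GEM6 and GEM7 lay between 80.8 and 194 CPM and the other 5 tumors at or under 20.3 CPM. The ratio of GEM4 to GEM3 was 2966, with a 95% interval of 821 to 24498 that covers counting error only, and the SD was 2.17 without GEM3. Sprr1a, a small proline-rich precursor of the cornified envelope, was high in the same 4 tumors. It was at 0.59 CPM in GEM3, 8.51 CPM in the median tumor and 145 CPM in GEM4, with an SD of 2.64. Scel, which encodes sciellin, another envelope protein, had an SD of 2.81 and was highest in another tumor. It was at 0.91 CPM in GEM3, 47.2 CPM in the median tumor and 231 CPM in GEM2. Ly6d, a surface protein of differentiating keratinocytes, was likewise highest in GEM2, at 947 CPM, and lowest in GEM3, at 3.85 CPM, with a median of 98.8 CPM.

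Other genes among the 25 of largest SD belong to this layer or to the follicle. Alox12e, an epidermal lipoxygenase (SD 2.44), Cst6, a cystatin of the cornified layer (2.06), and Dsg3, a desmosomal cadherin (2.20), were all highest in GEM4. Krt79, a keratin of the follicle opening, was at 18.2 CPM in GEM3, 359 CPM in the median tumor and 1399 CPM in GEM5. Krt75, a keratin of the follicle companion layer, was at 4.61, 47.6 and 290 CPM in the same 3 tumors. Krt6a was at 7.97 CPM in GEM3, and GEM2 and GEM8 were also low at 34.8 and 27.7 CPM, while the median was 345 CPM. Krt16, its partner keratin in wounded skin, had its lowest value in GEM2, at 3.57 CPM, and its highest in GEM7, at 89.6 CPM. Of the 25 genes, 17 were lowest in GEM3 and 10 were highest in GEM4. After the GC and length trends had been removed their SDs ranged from 1.69 to 3.36, so that none fell under 1.

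**Figure D1:**
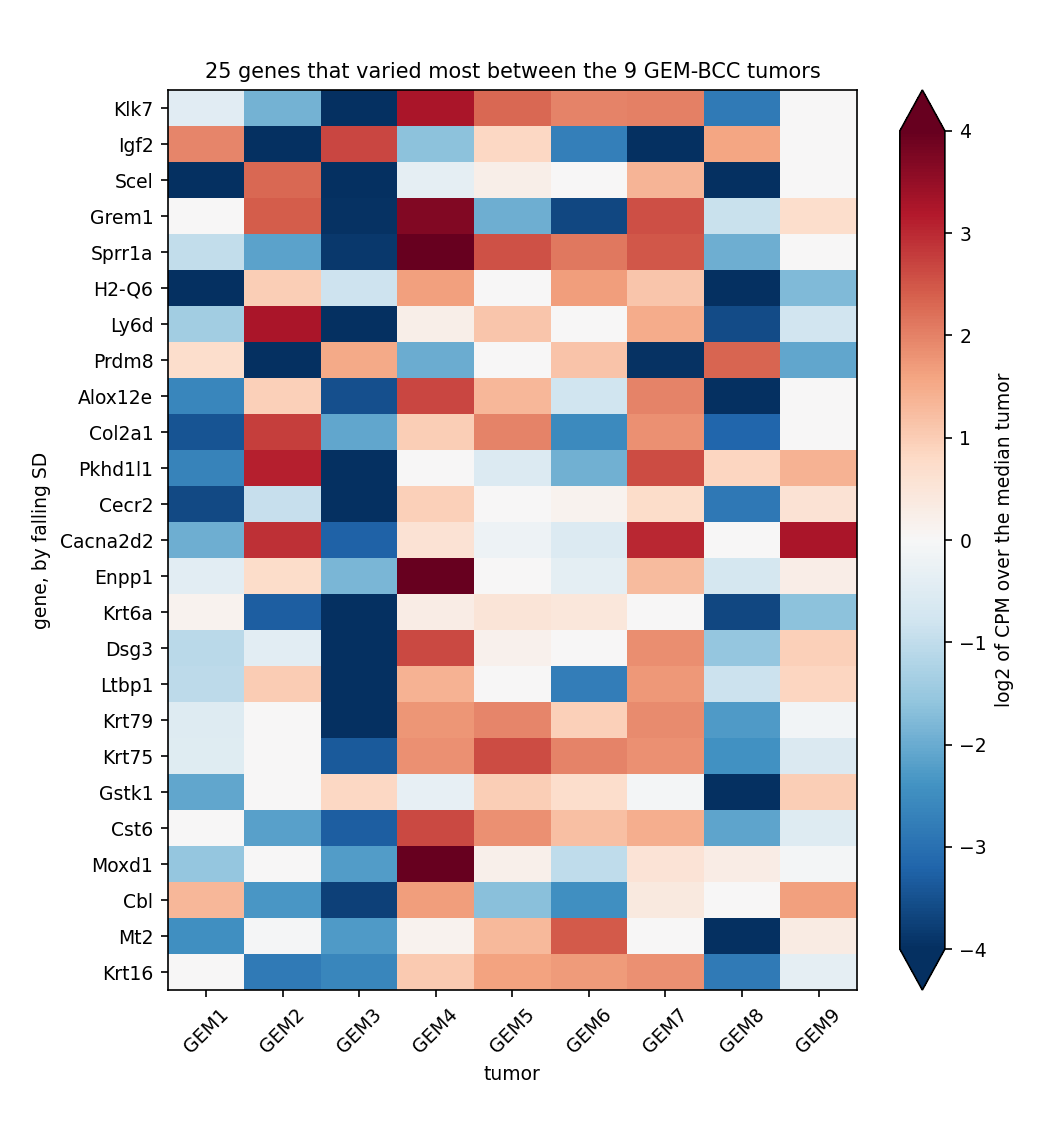
Levels of the 25 genes of largest SD (rows, by falling SD) in the 9 GEM-BCC tumors (columns), as log2 of CPM over the median of the 9 tumors, with colors ending at 4 and -4. GEM3 is the lowest tumor in 17 of the rows and GEM4 the highest in 10.

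The remaining genes of largest SD had other roles and other orders of tumors. Igf2, the imprinted growth factor gene, had the second largest SD, 3.18. It was at 1.91 CPM in GEM2, 6.46 CPM in GEM7 and 177 CPM in the median tumor, and reached 1131 CPM in GEM3. Prdm8, a transcriptional regulator (SD 2.46), was low in the same 2 tumors, at 1.3 CPM in GEM2 and 2.05 CPM in GEM7, with a median of 31.6 CPM and a maximum of 159 CPM in GEM8. Grem1, a secreted inhibitor of Bmp ligands, went from 0.56 CPM in GEM3 over a median of 8.51 CPM to 110 CPM in GEM4, with an SD of 2.68. Col2a1, the collagen of cartilage, went from 1.96 CPM in GEM1 over 21.6 CPM to 148 CPM in GEM2. H2-Q6, an MHC class Ib gene, was low in GEM8 (1.5 CPM) and GEM1 (2.19 CPM) against a median of 46.3 CPM. Mt2, a metallothionein, was lowest in GEM8 at 0.72 CPM, and Gstk1, a glutathione transferase, stood apart there at 0.31 CPM against a median of 15.8 CPM. Without GEM8 the SD of Gstk1 was 1.02 instead of 2.07. Pkhd1l1 (SD 2.38), Cecr2 (2.26), Cacna2d2 (2.25), Ltbp1 (2.18) and Cbl (2.00) were each lowest in GEM3. Ltbp1 binds latent Tgf-beta, Cacna2d2 is a calcium channel subunit, Cecr2 a chromatin remodelling factor and Cbl a ubiquitin ligase.

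A cluster of neighbours on chromosome 10 was high in a single tumor. Enpp1, the enzyme that makes pyrophosphate outside the cell, was at 10470.0 CPM in GEM4 and between 46.9 and 396 CPM in the other 8 tumors, and Moxd1 was at 4014 CPM in GEM4 against a median of 128 CPM. Without GEM4 their SDs fell from 2.22 to 0.95 and from 2.05 to 1.02.

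The 333 genes with an SD of at least 1 were sorted by their correlation over the 9 tumors, so that genes joined at a mean correlation of at least 0.6 formed a group. Groups of at least 10 genes numbered 11 and held 266 of the genes. The groups describe these 9 libraries and were cut from the same values, so that no test was made of them. Each group is given by the average of its genes in a tumor, in log2 CPM, after subtracting each gene's 9-tumor mean.

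The largest group, of 51 genes, was led by Krt79, Calml3, Extl1, Anxa8 and Krt75 and held Klk7, Sprr1a, Scel, Krt6a, Krt16, Krt10, Sbsn and Asprv1. Of the 51 genes, 7 are on the list of cornified envelope genes and 4 on that of follicle genes, and most are on neither. Its mean was lowest in GEM3 (-2.45) and GEM8 (-1.75) and highest in GEM4 (1.58), GEM7 (1.32) and GEM5 (1.19), and 48 of the 51 genes kept an SD of at least 1 after the trends had been removed. Calml3, a calmodulin-like protein of epithelia, was at 5.26 CPM in GEM3, 45.3 CPM in the median tumor and 179 CPM in GEM4. Anxa8, an annexin, was at 10.2, 196 and 370 CPM in the same order.

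The next group, of 47 genes, was led by Casz1, Cwh43, Pappa, Nrcam and Foxi3 and was low in GEM3 (-2.59). It was high in GEM7 (1.32), GEM9 (1.09), GEM2 (1.08) and GEM4 (1.02). Of its 47 genes, 27 kept an SD of at least 1 without GEM3, and 43 after the trends had been removed. Casz1 is a zinc finger transcription factor and Foxi3 a forkhead factor of skin appendages, and Dsg3, Ppl and Grhl1 of the epidermal junctions and barrier were also in it. A group of 41 genes led by Sik2, Ern1, Tnks, Cbl and Arid5b was low in GEM3 (-2.18) as well. The median length of its transcripts was 7369 bases, against 3288 bases over the 10483 genes, and 21 of its 41 genes kept an SD of at least 1 once the GC and length trends had been removed, and 19 without GEM3. It held many regulators found in all cells, such as the kinase Sik2, the endoplasmic reticulum stress sensor Ern1 and the tankyrase Tnks. The part of transcript length in the level of this group was not tested further.

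A group of 33 genes ran in another order, and 13 of them kept an SD of at least 1 without GEM2. It was led by Lzts1, Alpk2, Igf2, Ccdc92b and Vav3 and held Prdm8, the growth factors Fgf1 and Fgf5 and the Wnt receptor Fzd10. It was low in GEM2 (-2.22) and GEM7 (-0.86) and high in GEM1 (1.23), GEM8 (0.93) and GEM3 (0.88). Lzts1 was at 3.31 CPM in GEM2, 16.5 CPM in the median tumor and 62.4 CPM in GEM1. Fzd10 was at 0.76 CPM in GEM2, 12.5 CPM in the median tumor and 35.5 CPM in GEM1.

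A group of 22 genes joined antigen presentation to metallothioneins. It was led by H2-Q4, Mt1, H2-Q6, Mt2 and H2-D1 and also held B2m, Psmb9 and Gstk1. Its mean was -2.76 in GEM8 and -1.21 in GEM1, and between -0.29 and 1.25 in the other 7 tumors. Without GEM8, 13 of the 22 genes kept an SD of at least 1. H2-D1, a classical MHC class I gene, was at 24.5 CPM in GEM8 and 53.7 CPM in GEM1, with a median of 348 CPM and a maximum of 1018 CPM in GEM6. Mt1 was at 2.38 CPM in GEM8, 23.7 CPM in the median tumor and 97.5 CPM in GEM6. The H2 genes are close copies of each other, so the division of reads between them is uncertain, whereas B2m, their single-copy partner chain, was also lowest in GEM8, at 57.4 CPM, against a median of 250 CPM.

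Several of the smaller groups rest on a single tumor. Without GEM3, 2 of the 14 genes of the Fzd5 group kept an SD of at least 1, and without GEM4 1 of the 10 genes of the Slc18b1 group did. In the Dnah7b group 4 of 12 genes kept it without GEM2, and in the Irx5 group 5 of 10 without GEM6. A group of 16 genes led by Col2a1, Pla2g3, Cyp4b1, Col8a2 and Gnai1 was high in GEM2 (1.70) and GEM7 (1.38). It was low in GEM1 (-1.59) and GEM8 (-1.20). A group of 14 genes led by Fzd5, Duox1, Astn2, Cacng7 and Gfra3 was low in GEM3 (-2.29), and a group of 12 led by Dnah7b, which also held Ret, Slc22a23 and Fam167a, was low in GEM2 (-2.29). A group of 10 genes led by Irx5, Grb14, Adgrg6, Brinp1 and Ptgfr, which also held the hemidesmosome collagen Col17a1, was low in GEM6 (-2.26). Brinp1 was at 1.08 CPM there and between 14.2 and 55.5 CPM in the other tumors. The group of 10 genes led by Slc18b1, Stx7, Med23, Enpp1 and Perp was high in GEM4 (3.35), and 8 of its 10 genes lie on chromosome 10. The last group, of 10 genes led by Ntrk3, Adgrd1, Slc1a1, Ltbp2 and Tnxb, was high in GEM5 (1.47) and low in GEM3 (-1.78) and GEM4 (-1.16). Without GEM3, 5 of its 10 genes kept an SD of at least 1.

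**Figure D2:**
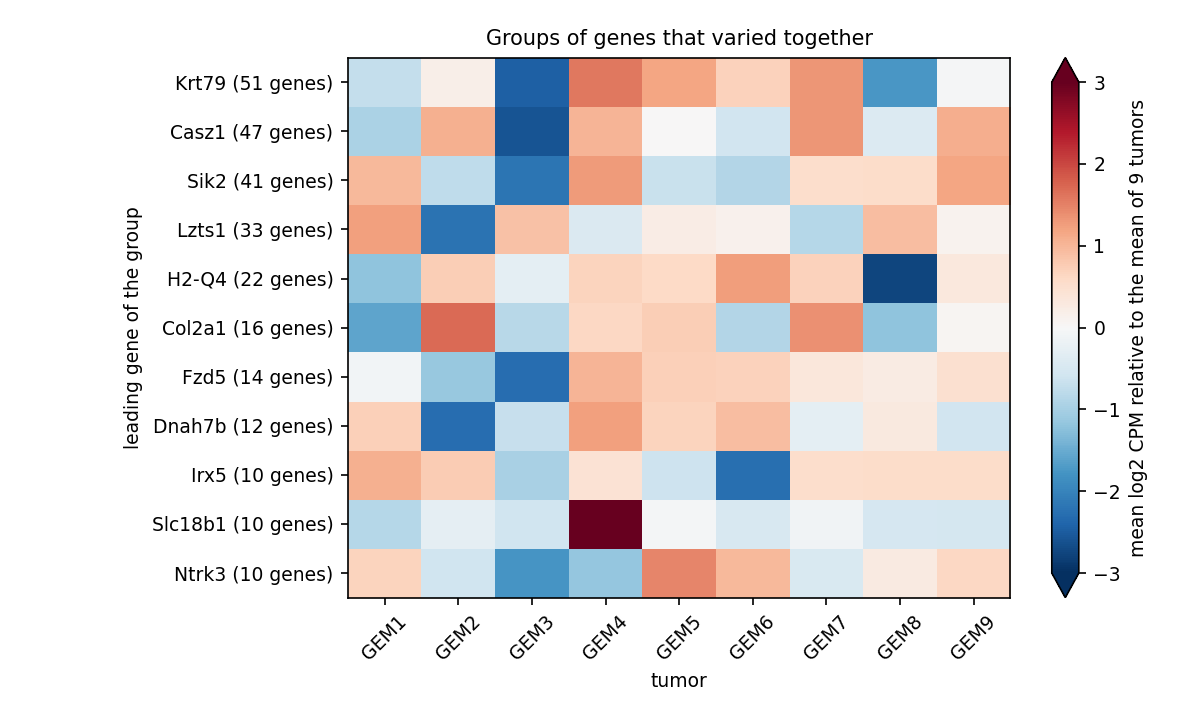
Average log2 CPM, centered on each gene's 9-tumor mean, for the 11 groups of genes with an SD of at least 1 (rows, named by their leading gene and size) in each tumor (columns). GEM3 is lowest in 5 of the groups, and the group of H2-Q4 is lowest in GEM8 at -2.76.

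Promoters of these genes were read to show what lies before genes that moved together. Windows of 300 bases, 250 before and 50 after the start, were taken from RefSeq for the build GRCm38.p6, the first listed for each gene, and matched 8424 of the 10483 genes and 241 of the 333. Searched for were TATAAA on the strand of the gene, which is the core of a TATA box, TGAGTCA on both strands, the site of AP-1, and GACCACCCA on both strands, the site of the Gli factors. The letters of 1 motif do not overlap those of another in the 4 promoters shown. TATAAA was in 9.13% of the windows of the variable genes and in 3.88% of all windows, and TGAGTCA in 5.81% and 3.21%. In the windows of the 333 genes of smallest SD these shares were 3.30% and 4.76%. In the group of 51 genes led by Krt79, 4 of 36 windows held TATAAA and 5 of 36 held TGAGTCA, and in the group of 22 genes with the MHC genes and metallothioneins 5 of 20 held TATAAA. GACCACCCA was in 0 of the 241 windows of the variable genes and in 0.202% of all windows. A match is a run of letters and not a site shown to be used. The 4 promoters printed here come from these groups, with the matches in capitals and all other bases in lower case, 5′ to 3′ on the strand of the gene. Sprr1a lies on the minus strand at chr3:92485832-92486131 and holds TATAAA beginning 43 bases before the start and TGAGTCA beginning 146 and 116 bases before it. Scel lies on the plus strand at chr14:103513091-103513390 and holds the reverse form TGACTCA beginning 36 bases before the start. H2-D1 lies on the plus strand at chr17:35262844-35263143 and holds TATAAA beginning 26 bases before the start. Mt2 lies on the plus strand at chr8:94172368-94172667 and holds TGACTCA beginning 79 bases before the start.
Sprr1a: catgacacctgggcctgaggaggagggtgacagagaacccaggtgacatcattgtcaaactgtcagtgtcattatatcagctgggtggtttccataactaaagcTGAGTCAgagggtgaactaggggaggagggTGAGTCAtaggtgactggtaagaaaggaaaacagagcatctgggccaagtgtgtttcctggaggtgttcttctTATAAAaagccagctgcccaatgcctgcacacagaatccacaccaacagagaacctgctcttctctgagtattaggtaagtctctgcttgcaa
Scel: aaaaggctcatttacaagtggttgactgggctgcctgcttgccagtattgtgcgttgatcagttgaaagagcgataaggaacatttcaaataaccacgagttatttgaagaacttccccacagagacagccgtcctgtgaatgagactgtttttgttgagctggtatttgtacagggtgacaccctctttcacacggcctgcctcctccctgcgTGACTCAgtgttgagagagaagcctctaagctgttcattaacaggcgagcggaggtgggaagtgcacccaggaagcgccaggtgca
H2-D1: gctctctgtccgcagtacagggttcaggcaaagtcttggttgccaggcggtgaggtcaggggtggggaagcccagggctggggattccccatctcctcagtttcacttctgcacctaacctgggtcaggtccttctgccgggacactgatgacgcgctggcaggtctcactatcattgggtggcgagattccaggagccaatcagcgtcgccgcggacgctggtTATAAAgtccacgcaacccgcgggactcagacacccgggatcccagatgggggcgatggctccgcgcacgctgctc
Mt2: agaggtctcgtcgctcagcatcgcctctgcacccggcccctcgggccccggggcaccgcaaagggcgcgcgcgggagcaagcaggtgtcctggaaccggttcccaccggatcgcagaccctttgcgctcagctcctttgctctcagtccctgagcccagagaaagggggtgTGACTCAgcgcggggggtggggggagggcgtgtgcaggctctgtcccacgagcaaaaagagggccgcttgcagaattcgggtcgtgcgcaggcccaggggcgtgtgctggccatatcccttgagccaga

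Known programs were followed with 31 gene lists written from general knowledge, and with 1 list of MHC class I presentation added because of the group above. The score of a list in a tumor was made the same way from the genes of the list that were tested. Over all 10483 genes the median SD was 0.38, and 3.18% had an SD of at least 1. The cornified envelope list was far above both, with a median SD of 1.22 and 9 of 12 members at an SD of at least 1, and its score went from -1.80 in GEM3 to 1.86 in GEM4. Its 3 most variable members were Klk7, Sprr1a and Cst6, and the least variable of the 12, Evpl (SD 0.45) and Dsg1a (0.58), were still above the median SD over all genes. The list of wound keratinocyte genes had 2 members at this level, Krt6a and Krt16, and its score was highest in GEM7 (1.90) and lowest in GEM2 (-1.15). Of the follicle stem cell and root sheath genes, 6 of 16 had an SD of at least 1, among them Krt6a, Krt79 and Krt75, but the follicle keratin Krt17 (SD 0.30) and the stem cell receptor Lgr5 (0.38) did not.

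Basal keratinocyte and Hedgehog genes had median SDs of 0.51 and 0.54, both above that over all genes. Among basal keratinocyte genes 1 of 14 had an SD of at least 1 (0.997 without GEM6), namely Col17a1, at 43.2 CPM in GEM6, 146 CPM in the median tumor and 479 CPM in GEM1. Krt15 followed with an SD of 0.89 and Dst with 0.69. Among 16 Hedgehog genes 1 did so, Sfrp1, a secreted Wnt inhibitor, which lay at 52.5 CPM in GEM3, 239 CPM in the median tumor and 487 CPM in GEM1. Hhip, the ligand-binding inhibitor of the pathway, had an SD of 0.71, Ccnd2, a cyclin, 0.62, and the receptor component Smo 0.24. The Hedgehog score was lowest in GEM3 (-0.69) and highest in GEM7 (0.41), or in GEM2 once the GC and length trends had been removed. Among Wnt genes Fzd10 (SD 1.58) and Lgr6 (1.18) varied most, followed by Bambi (0.76). Their SDs were 0.95 without GEM2 for Fzd10, and 0.99 for Lgr6 and 0.46 for Bambi without GEM3. Of the p53 targets only Perp reached an SD of at least 1, with 2609 CPM in GEM4 and an SD of 0.50 without that tumor, and Perp also lies on chromosome 10. Trp53inp1 (0.83) and Cdkn1a (0.62) came next.

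Cell division varied as a whole, with no single gene at the extreme. All 36 genes of the list were tested, 35 averaged 3 or more in log2 CPM, and 0 of them had an SD of at least 1, but their median SD was 0.66. The score ran from -1.13 in GEM6 to 0.75 in GEM8 and 0.60 in GEM3. Mki67, the proliferation marker, was at 39.3 CPM in GEM6, 104 CPM in the median tumor and 180 CPM in GEM3, and Hmmr and Bub1 of the mitotic spindle were also lowest in GEM6. DNA replication genes had the same extremes, with scores of -0.79 in GEM6 and 0.68 in GEM8. Mcm10 was at 4.00 CPM in GEM6, 16.1 CPM in the median tumor and 31.5 CPM in GEM8, and Pole and Uhrf1 were also lowest in GEM6 and highest in GEM8. Of the hypoxia and glycolysis genes, Bnip3 (SD 1.19) and Hk2 (1.02) exceeded an SD of 1, and both were highest in GEM2, while Egln3 (0.96) was highest in GEM6. The SD of Bnip3 was 0.70 without GEM1 and that of Hk2 was 0.85 without GEM3, and after removal of the GC and length trends they were 0.94 and 0.96. Among imprinted genes Igf2 and Peg3 exceeded it, and Peg3 was lowest in GEM3 (2.58 CPM) and highest in GEM4 (106 CPM).

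Immune and stromal lists differed in their order of tumors. MHC class II genes, which antigen-presenting cells carry, had scores from -1.57 in GEM4 to 1.66 in GEM6. Cd74, the invariant chain, was at 18.9 CPM in GEM4, 62.0 CPM in the median tumor and 289 CPM in GEM6, and H2-Eb1 at 2.00, 6.39 and 34.3 CPM. The macrophage score had the same extremes, -0.92 in GEM4 and 1.05 in GEM6, as did the complement genes C1qa and C1qb, although 0 of 10 members had an SD of at least 1. GEM4 thus had the lowest class II score and, at 0.98, the second highest MHC class I score (the highest once the GC and length trends had been removed). The lists of both classes parted most clearly in this tumor. GEM6 was the highest tumor in both, at 1.12 for class I and 1.66 for class II, and GEM8 was low in both, at -1.70 and -1.11. In the MHC class I list 6 of 14 members had an SD of at least 1, and H2-Q6, H2-D1 and Nlrc5, the transactivator of class I genes, led. The list was added because of the H2-Q4 group, so this count follows in part from how the list was chosen. Nlrc5 was at 2.38 CPM in GEM8, 22.3 CPM in the median tumor and 108 CPM in GEM4. The peptide transporter genes differed little or moderately, with an SD of 0.18 for Tap2 and 0.60 for Tap1. T and NK cell genes were near the limit of detection, with 6 of 22 tested, and only 1 of 11 B cell genes was tested, so that neither list shows an order of tumors. The score of 24 fibroblast and matrix genes ranged from -0.47 in GEM4 to 0.43 in GEM5, with Mfap5 (SD 1.35), Postn (1.03) and Loxl1 (0.86) the most variable members. Hemoglobin, a sign of blood in the piece, varied too, with Hba-a1 between 25.6 CPM in GEM7 and 259 CPM in GEM2.

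**Figure D3:**
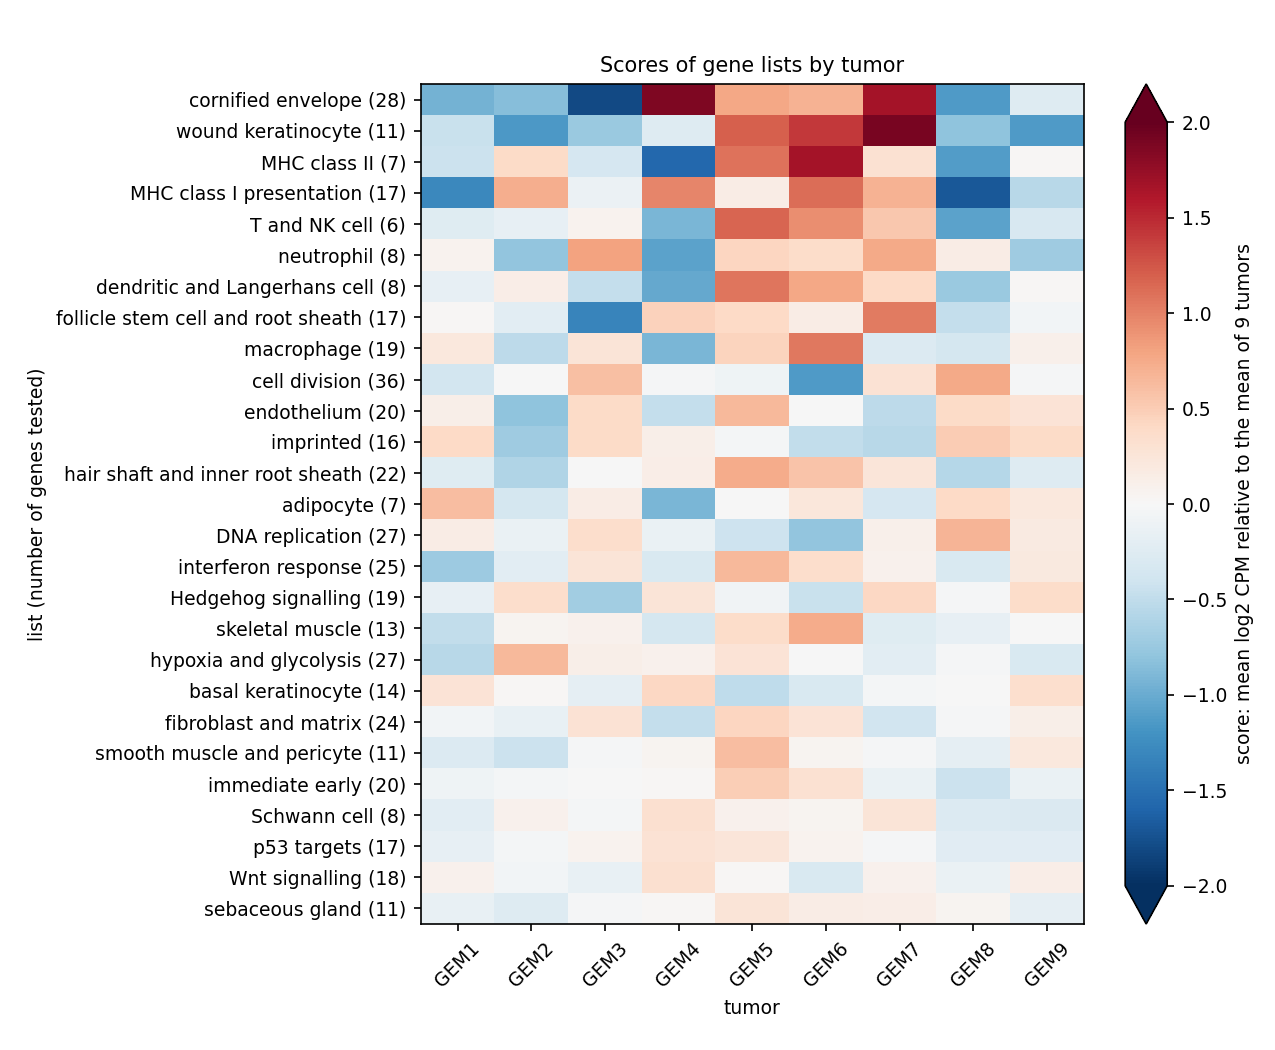
Scores of the gene lists with at least 6 tested genes (rows, by falling SD of the score) in the 9 tumors (columns), as average log2 CPM centered on each gene's 9-tumor mean. The cornified envelope row runs from -1.80 in GEM3 to 1.86 in GEM4, and the lists of p53 targets, Wnt signalling and sebaceous gland stay near 0.

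Relations between list scores were computed over the 7 mice, with the 2 tumors of a mouse averaged. Of 16 pairs of lists, 15 were tested and 1 was not, because the mouse of GEM4 was separated from the other 6 in the adipocyte score by more than 0.5 of the range. After adjustment over the 15 tests, 0 passed an adjusted p of 0.05 in exact permutation tests, 2-sided, over all 5040 pairings, and 7 of them had an unadjusted p under 0.05. The largest r was between macrophage and MHC class II scores, with r = 0.94 (exact permutation p = 0.00456, adjusted p = 0.0685) and rho = 0.79 (permutation p = 0.048, adjusted p = 0.142). Without the 2 mice farthest from the median macrophage score r was 0.68. The adjusted p of the permutation test was 0.0153 without GEM1 and 0.0327 without GEM7. It was 0.0565 to 0.167 when GEM2, GEM3, GEM4, GEM6, GEM8 or GEM9 was left out. The largest rho was between interferon response and MHC class II scores, at 0.93 (exact permutation p = 0.00675, adjusted p = 0.101), with r = 0.74 (exact permutation p = 0.0546, adjusted p = 0.102) and r = 0.94 without the 2 farthest mice. Fibroblast and macrophage scores had r = 0.86 (permutation p = 0.0169, adjusted p = 0.102) and rho = 0.86 (permutation p = 0.0238, adjusted p = 0.119), and r = 0.81 without the 2 farthest mice. Cell division and DNA replication scores had r = 0.81 (permutation p = 0.0282, adjusted p = 0.102), which fell to 0.03 without the 2 farthest mice, so that this relation rests on those mice. Their rho was 0.71 (permutation p = 0.0881, adjusted p = 0.165). Cornified envelope and cell division scores had r = -0.19 (permutation p = 0.692, adjusted p = 0.692) and rho = -0.29 (permutation p = 0.556, adjusted p = 0.596), and r = -0.14 without the 2 farthest.

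By mean distance, tumors of the same mouse were not closer to each other than tumors of different mice. The distance between 2 tumors was the root mean square of their log2 CPM differences over the 10483 genes. GEM7 and GEM8 were 0.62 apart, which ranks 11 among all 36 pairs from the nearest, and GEM2 and GEM3 were 0.81 apart, which ranks 30. Their mean was 0.71, against 0.68 ± 0.15 (SD) for the 34 pairs from different mice. The difference of 0.03 gave p = 0.749 in an exact permutation test, 2-sided, over the 378 ways to place 2 such pairs on 9 tumors, and the smallest p this design allows is 0.00265. With 2 pairs the test can miss a real difference, and it does not show that the distances are alike. Taken gene by gene over the same genes, limma's consensus correlation between tumors of 1 mouse was positive, at 0.28. This correlation was not tested. After the GC and length trends had been removed the means were 0.68 within and 0.61 between mice (p = 0.376, exact permutation). The sign turned when GEM2 (-0.08) or GEM3 (-0.02) was left out, and without GEM1 and GEM3 the difference was 0.02. The nearest pair of all, GEM4 and GEM7, came from different mice, at 0.41, and the farthest, GEM3 and GEM4, also did, at 1.00. GEM3 was the tumor farthest from the mean of all, at a distance of 0.68, against 0.35 to 0.55 for the other 8.

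**Figure D4:**
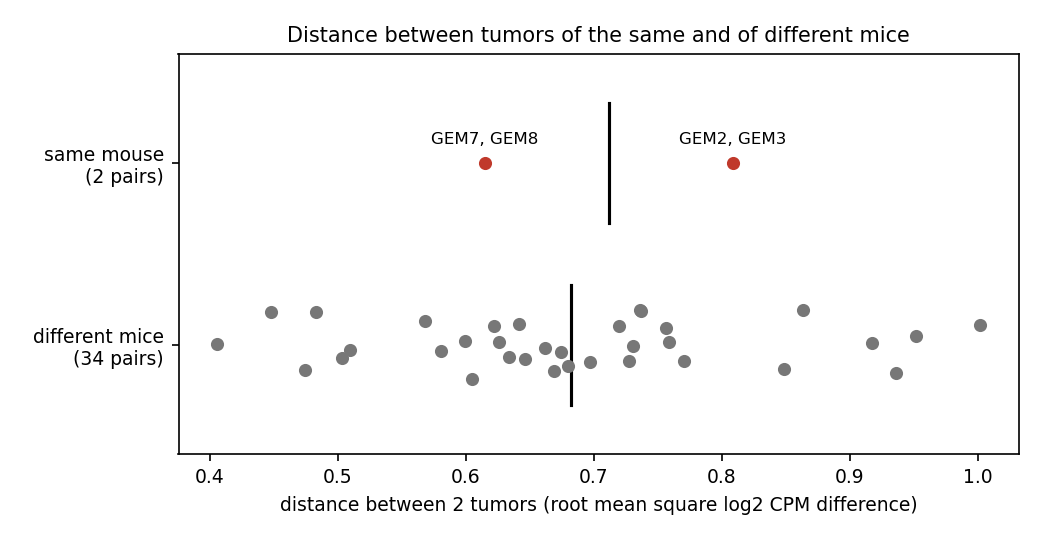
Distance between tumors, as root mean square log2 CPM difference over 10483 genes, for the 2 pairs from the same mouse (red, named) and the 34 pairs from different mice (gray, spread vertically for clarity). Vertical lines mark the means of 0.71 and 0.68, and both same-mouse pairs lie within the range of the others.

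The variable genes were also compared within and between mice. Of the 333 genes with an SD of at least 1, 75.7% differed by more than 1 on the log2 scale between GEM2 and GEM3, and 60.7% between GEM7 and GEM8. The median over the 34 pairs from different mice was 61.6%, with a range of 34.8% to 79.9%. These genes, and the groups cut from them, were chosen by their SD over the same tumors. GEM3 was the farthest tumor in 126 of the genes, and its pairs with tumors of other mice were at 66.1% to 79.9%. For Igf2, GEM2 minus GEM3 was -9.16 and GEM7 minus GEM8 was -6.33 on the log2 scale. GEM2 and GEM7 were its 2 lowest tumors. The group led by Krt79 differed by 2.63 and 3.08 within the 2 mice, against a median of 1.38 between mice, and the group led by H2-Q4 by 1.03 and 3.45, against 0.93. Some profiles were close within both mice. The skeletal muscle score differed by 0.03 and 0.07 within mice, against a median of 0.38 between mice, and the blood score by 0.48 and 0.65 against 1.90, but both lists hold few well-expressed genes. The basal keratinocyte score, from 14 well-expressed genes, differed by 0.20 and 0.03 against 0.33. Cell division was little under its median, at 0.60 and 0.46 against 0.62. Other lists were farther apart within both mice, such as endothelium, at 1.18 and 0.91 against 0.50, and imprinted genes, at 1.10 and 1.07 against 0.45. These differences were not tested.

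Gene by gene, 0 of 14260 genes (0%) differed between the 7 mice at an adjusted p under 0.05 in edgeR's quasi-likelihood F test, and 541 had an unadjusted p under 0.05. With limma-trend, 0 were called as well, with 558 at an unadjusted p under 0.05. DESeq2's likelihood ratio test called 479 genes, or 3.36%, and gave 1559 an unadjusted p under 0.05. The spread within a mouse rests on 2 pairs of tumors here, which is the limit of this comparison. Enpp1, Moxd1 and Cbl had an adjusted p of 0.838 each in edgeR.

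Tumors also differed over long runs of neighbouring genes. After removal of the GC and length trends, each gene's level was taken relative to the median of the 9 tumors, and windows of 51 tested neighbours in the gene order of RefSeq were kept where the median of a tumor was at least 0.5 above or below. Such windows joined into 30 stretches, of which 8 were raised and 22 lowered, and GEM7 had 0 of them. GEM8 was lower over nearly all of chromosome 1. The median of its 758 genes from Tmem14a to Cr1l was -0.58, that is, 0.67 times the median tumor, and in the other 8 tumors this median was between 0.00 and 0.09. Chromosome 4 was lower in GEM1, GEM3 and GEM8 at once, with medians over its 900 genes of -0.40, -0.43 and -0.46, against -0.04 to 0.19 in the other 6 tumors. It held 15 of the 30 stretches.

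Most other stretches were seen in a single tumor. GEM9 was raised by 0.63 over 198 genes of chromosome 13, from Zfp456 to Gm21188, and lowered by 0.60 over 142 genes of chromosome 18. GEM5 was raised by 0.64 over 181 genes of chromosome 10 from Cfap54 to Itga7, with 92.3% of them above the median tumor. GEM2 was lower over 224 genes of chromosome 5 from Rheb to Tmem165 (-0.55), GEM3 over 248 genes of chromosome 2 from Zc3h15 to Ap4e1 (-0.58). On the same chromosome GEM6 was lower over 302 genes from Echdc3 to Arl6ip6 (-0.51), where the median in GEM3 was -0.41. On chromosome 8, GEM1 was raised by 0.50 over 51 genes that begin at Nup93, and the median over all genes of the chromosome was 0.34 in that tumor. At the other end of chromosome 10 GEM4 was raised by 1.26 over 108 genes from H60c to Nt5dc1, around Enpp1, where GEM8 and GEM9 had stretches of 0.52 and 0.39. GEM2 and GEM3 had no stretch in common, and GEM7 had none to share with GEM8. Since GEM2 had only 1 stretch and GEM7 had 0, few could be shared within a mouse. No rate for tumors of different mice was set beside this, so it does not show whether tumors of the same mouse differ in this respect. Gene order came from an annotation of GRCm38, whereas the counts were made on GRCm39, so that no coordinates are given for the stretches. DNA copy number was not measured here.

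**Figure D5:**
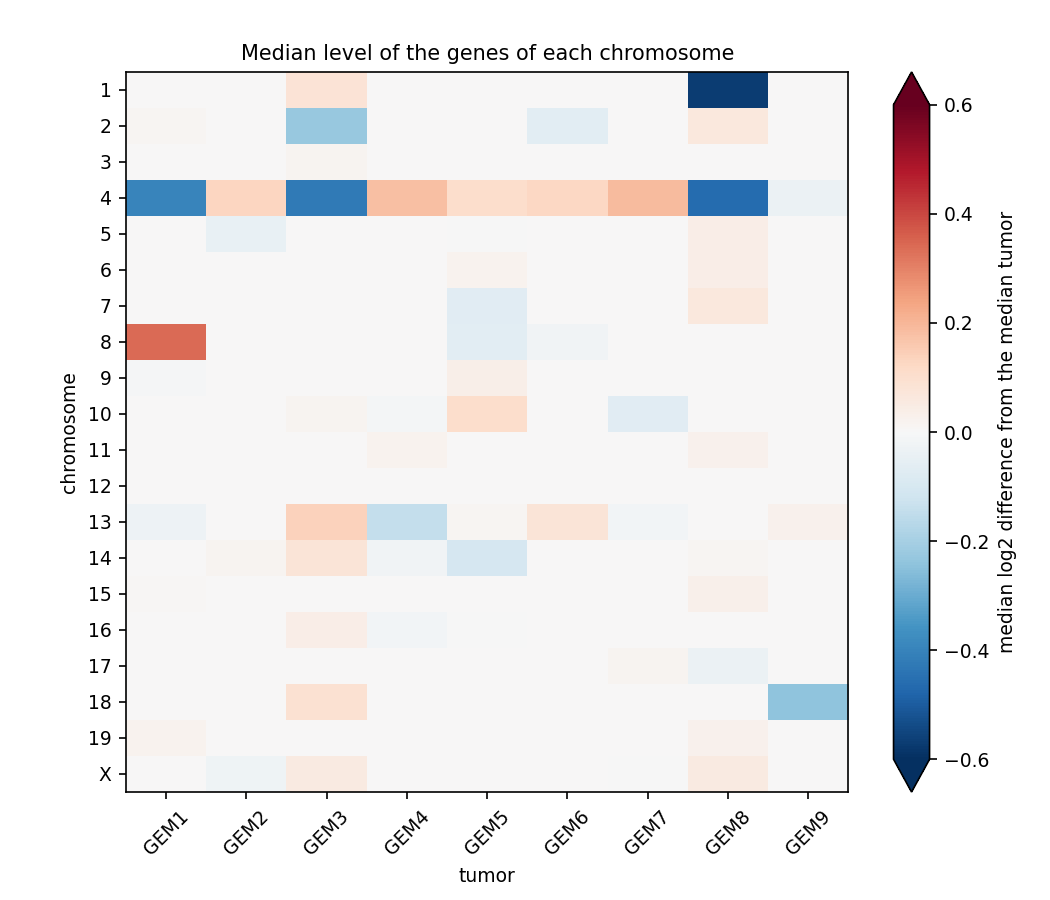
Median over the genes of each chromosome (rows) of the log2 difference from the median of the 9 tumors, after removal of GC and length trends, in each tumor (columns). Chromosome 1 is lowered in GEM8 at -0.57, and chromosome 4 in GEM1, GEM3 and GEM8 at -0.40 to -0.46.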

How the data were processed

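Poly(A) RNA of 9 GEM-BCC tumors was sequenced with 1 library per tumor, and 4 columns of transplanted tumors were not used. According to the methods and labels, the authors cleaned reads with SOAPnuke, aligned them with Bowtie2 2.3.4.3 to GRCm39 and deposited the expected counts per gene that RSEM 1.3.1 estimated, neither rounded nor normalized. An expected count can be fractional, as reads that fit several genes are divided between them. Here 2.84% of values were not whole, and values were rounded.

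Of 21100 genes, 18619 had a value in the GEM-BCC tumors, and a gene was tested if 4 or more tumors had 10 or more counts for it. Log2 CPM (TMM, prior count 2) was computed with edgeR 4.0.16 in R 4.3.3. Mice were compared with edgeR's quasi-likelihood F test, p-values adjusted by the Benjamini-Hochberg method, and distances and list scores with exact permutation tests. The labels number the tumors of a mouse as separate tumors, and RSEM was run for stranded reads. The steps were tested on simulated data.

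Trends of each tumor's deviation with GC content and then log2 length of the longest GENCODE vM21 transcript were removed by lowess (span 0.3). Genes named are the 10 highest in mean CPM per kilobase, the 25 of largest and 5 of smallest SD with clone-like names left out, up to 3 of each list by SD, up to 5 leading each group of genes that varied together, and Ptch1, Trp53, Krt14 and Gli1. A gene that this rule selects is not reported here. Other genes were named after their values were seen: B2m, Psmb9, Krt10, Krt17, Sbsn, Asprv1, Evpl, Dsg1a, Ppl, Grhl1, Fgf1, Fgf5, Lgr5, Smo, Tap1 and Tap2. Tumors, lists and groups were chosen with earlier results of these data known. Alternatives were DESeq2 1.42.0, limma-trend (limma 3.58.1), other filters, scales and size factors, and each tumor left out. Removal of the length trend and leaving out GEM1 and GEM3 together were added after the data were seen, as were the counts per group without each tumor, the promoter motifs and the stretches of neighbouring genes.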

Additional observations from a re-analysis of the deposited data

Results flagged for a closer look

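In each group of 9 values, the gap between an extreme tumor and its neighbour was divided by the whole range and compared with Dixon's 95% critical value. Chance passes about 1 in 20 groups of unselected values. Of the 136 named genes 15 passed, all with an SD of at least 1. Many named genes were chosen by their SD over these same tumors, and several are neighbours, so these rates cannot be compared. Of the 333 genes with an SD of at least 1, 38 (11.4%) passed. In GEM4 the share was 0.904 for Slc18b1, 0.853 for Med23, 0.828 for Stx7, 0.611 for Moxd1, 0.606 for Enpp1 and 0.59 for Perp, all on the high side, and these genes lie on chromosome 10. In GEM3 it was 0.543 for Ppl, 0.539 for Grhl1, 0.517 for Sbsn, 0.499 for Duox1 and 0.493 for Pappa, all on the low side. In GEM6 Brinp1 (0.65) and Irx5 (0.503) stood apart on the low side. In GEM8 Gstk1 was low with a share of 0.525, and in GEM1 Bnip3 was low with 0.539. The relation of GEM1 to transcript GC content stood apart from the other 8 tumors with a share of 0.611. The causes were not tested.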

How the results depend on the processing

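No paired analysis was possible because the comparisons lie within the GEM-BCC tumors, whose replicate numbers pair them with no other group compared here. The difference between same-mouse and different-mouse distances ranged from -0.0767 to 0.129 when each tumor was left out, and its sign turned without GEM2 (-0.0767) and without GEM3 (-0.0153). Of the 50 genes of largest SD, 30 were among the 50 of largest median absolute deviation and 32 among the 50 of largest SD without GEM1 and GEM3. With each tumor left out 37 to 49 were shared. DESeq2's likelihood ratio test called 479 genes between mice where edgeR called 0, and with each tumor left out edgeR called 0 to 0. The count of relations between lists past the threshold ranged from 0 to 1 and was 1 without GEM1 and without GEM7. The causes were not tested. With 2 mice that gave 2 tumors each, the spread within a mouse is poorly known, and 1 library per tumor gives no technical error.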
